A study of Homo sapiens with 15 samples.

Results

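The transcripts of 33 genes of sterol and fatty acid synthesis were followed in multiple myeloma (MM) cells exposed to bone marrow stromal cells (BMSCs). The genes were chosen by symbol as enzymes, regulators and carriers of this metabolism, and all 33 were found among the 20468 RefSeq genes of each table. RNA-Seq libraries came from the human myeloma lines MM.1S and RPMI8226, and HS5, a human stromal cell line, stood in for BMSCs. MM cells were kept alone (MONO), in an upper transwell over HS5 cells (TSW), or in the lower chamber in contact with HS5 cells (CO). Soluble factors but no stromal cells cross the transwell membrane. According to the study's methods, the transwell was set into wells that already held HS5 and MM cells. TSW and CO cells thus shared wells, and which libraries came from the same well is not stated. All cultures lasted 48 h in the same serum-containing medium with penicillin and streptomycin, and CD90-CD38+ live cells were sorted before RNA was extracted. Trypsin is stated for coculture and not for MONO, and whether TSW counts as coculture there is not clear, so this treatment may differ between the groups of every comparison, including each with MONO, and its part in the results was not tested. MM.1S had 3 libraries per condition and RPMI8226 had 2, which makes 15 libraries. The sort left a minor amount of HS5 cells in CO according to the study's methods, and no source says that replicates were separate cultures, so p-values measure the spread between these samples, which may be technical.

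Expression was taken as RPKM, the sequenced tags of a gene scaled to its transcript length in kilobases and to the library's total. Libraries held between 9008977 and 19050772 tags, and 1 tag on a transcript of 2 kb was worth an RPKM between 0.0262 and 0.0555, which covers counting error only. Fold changes are on the scale of log2(RPKM + 1), which understates the change of genes with low values. They were tested with limma on genes whose mean RPKM reached 1, which were 10153 in MM.1S and 10319 in RPMI8226. Called genes had an adjusted p under 0.05 after Benjamini-Hochberg correction over all genes tested and a fold change over 1.5, and every adjusted p given is from these limma fits. Because each line has a table with its own normalization, every test stays within a line, and values of the lines set side by side are not a test of their difference. In bulk RNA, fewer cells of a type and less RNA per cell cannot be told apart.

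Cells build cholesterol from acetyl-CoA through mevalonate, isoprenoid units, squalene and lanosterol, and they build fatty acids from the same acetyl-CoA through malonyl-CoA. The SREBP transcription factors switch on both branches. When sterol is plentiful, INSIG proteins hold SREBP and its escort SCAP in the endoplasmic reticulum, and when sterol runs low SREBP is released, cleaved and carried to promoters with sterol regulatory elements, often beside CCAAT boxes bound by NF-Y. Plasma cells, the normal counterpart of MM cells, carry a large endoplasmic reticulum whose membranes are made from these lipids.

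The sorted cells carried the transcripts of plasma cells. All 10 plasma cell markers had an RPKM of at least 1 in every MM.1S library, and 9 of 10 did in every RPMI8226 library, where SLAMF7 ran from 0.0184 to 0.104. JCHAIN, the joining chain of secreted antibodies, was the most abundant in each of the 15 libraries. Of the mature B cell markers, MS4A1 was at 0 in all libraries, PAX5 stayed at or below an RPKM of 0.659, and CR2 ran from 4.45 to 8.67 in MM.1S and reached 0.0566 in RPMI8226.

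Stromal transcripts were a feature of CO. The 36 stromal markers summed to an RPKM of 27.9, 31.6 and 32.1 in MM.1S MONO, 18.0, 18.9 and 18.2 in TSW, and 182, 199 and 167 in CO. CAV1 was the most abundant in MONO and TSW, and MMP1, a collagenase, in CO. In RPMI8226 the sums were 4023 and 4344 in MONO, 1701 and 1986 in TSW, and 2125 and 2331 in CO, with FN1, fibronectin, the most abundant in all of them, MONO included. Without FN1 and CAV1 the MM.1S sums were 8.84, 10.2 and 11.0 in MONO, 5.02, 6.12 and 5.74 in TSW, and 149.97, 166 and 139 in CO, and the RPMI8226 sums were 4.99 and 5.04 in MONO, 6.04 and 5.88 in TSW, and 96.7 and 142 in CO. In MM.1S, 14 of the 36 markers were at 0 in every MONO and TSW library, among them COL1A2, COL3A1, MMP1 and MMP3, and 13 of these 14 were above 0 in every CO library. In RPMI8226 13 were at 0 in every MONO and TSW library, and 11 of them were above 0 in every CO library. The part of stromal RNA in the CO values of the sterol and fatty acid genes was not tested.

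A part of the 33 genes rose in both coculture settings, and they included regulators, sterol carriers and enzymes of both branches. In MM.1S 31 of the 33 passed the filter, and 9 were called higher and 0 lower in TSW vs MONO, which is 29.0% of those tested, where 6.48% of all genes tested were called higher and 4.16% lower. In CO vs MONO 7 were called higher and 0 lower, or 22.6%, against 7.13% and 4.65% of all genes tested. All 7 were among the 9 of TSW, and these comparisons share the MONO libraries. The count of 0 lower from limma was also 0 from voom. In limma the unadjusted p was under 0.05 for 15 members in TSW and 16 in CO, counting both directions. Over all 10153 genes tested it was under 0.05 for 4095 in TSW and 4467 in CO. The median log2 fold change of the 31 genes was 0.32 in TSW and 0.26 in CO, beside 0.01 and 0.01 over all genes tested.

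In RPMI8226 members were called in both directions. All 33 genes passed the filter, and 9 were called higher and 3 lower in TSW vs MONO, or 27.3% and 9.09%, against 14.5% and 17.9% of all genes tested. In CO vs MONO 8 were called higher and 3 lower, or 24.2% and 9.09%, against 16.4% and 22.9% of all genes tested. The shares called lower lay below those of all genes tested. With a loess correction for GC content and length limma called 9 members higher and 0 lower in TSW, and 10 higher and 1 lower in CO. Of all genes tested with this correction, 16.7% were called higher and 14.3% lower in TSW, and 18.8% and 17.4% in CO. The median of the 33 was 0.18 in TSW and 0.07 in CO, beside -0.08 and -0.09 over all genes tested. The balance over all genes changed with the scaling. Of all calls in RPMI8226 TSW vs MONO 44.7% were increases, and 53.9% were when GC content and length were corrected by loess and 52.1% with median-of-ratios scaling. In CO vs MONO 41.7% were increases, and 52.0% and 51.5% with these settings. With quantile normalization increases were 47.5% in TSW and 47.1% in CO, and decreases outnumbered them as without it.

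In MM.1S CO vs TSW limma called 0 members higher and 0 lower, while 0.374% of all genes tested were called higher and 0.0394% lower. Voom also called 0 members. An unadjusted p under 0.05 was found for 4 members, beside 450 of the 10153 genes tested. In RPMI8226 1 member was called higher and 1 lower, against 1.9% and 2.39% of all genes tested. These were MSMO1 and ACAT2, whose values are given with their pathways. Of the 33 members there, 19 had an unadjusted p and 14 an adjusted p under 0.05. Over all 10319 genes tested these counts were 4169 and 2849. Voom called 3 members higher and 1 lower, beside 3.12% and 3.39% of all genes tested. Limma after the loess correction called 0 and 0, beside 1.76% and 0.79%. Of all calls in this comparison 44.2% were increases, and 57.8% were with median-of-ratios scaling, 59.7% with quantile normalization and 69.0% with the loess correction. Without TSW replicate 1 the genes called higher over all genes were 383 in place of 196, and 53.3% of the calls were increases.

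**Figure D1:**
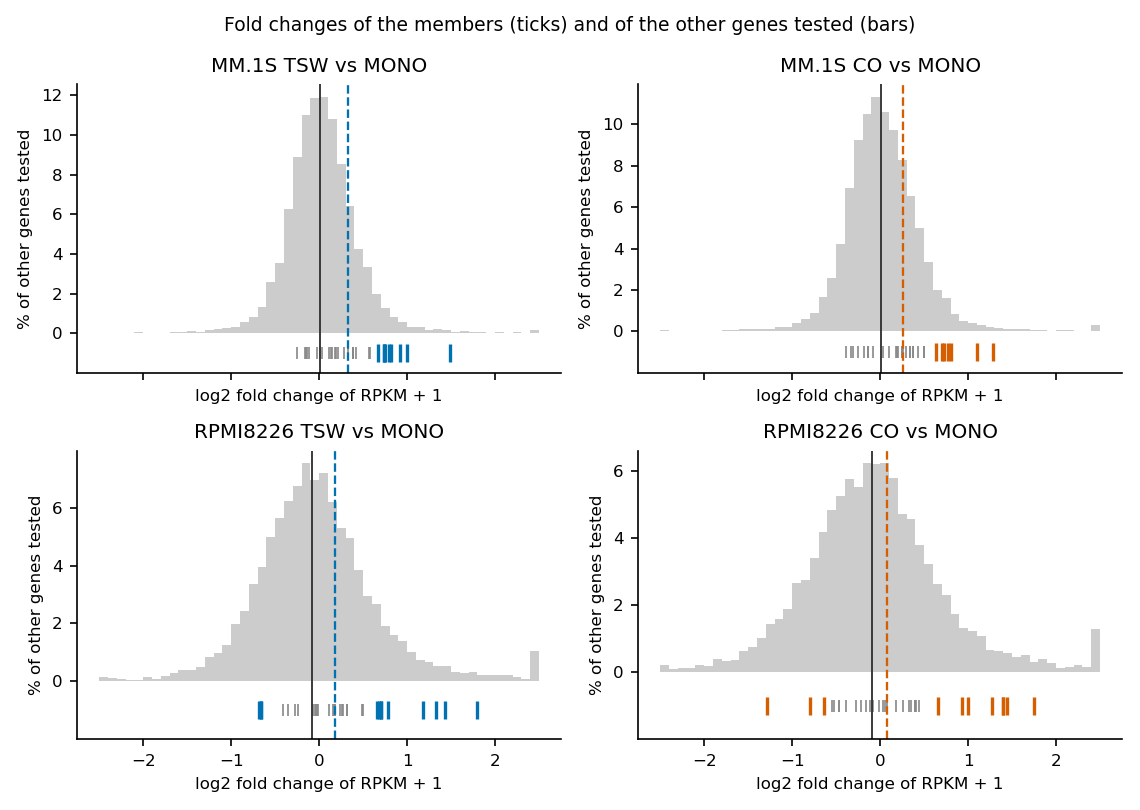
Log2 fold changes (x axis) in TSW and CO vs MONO for each cell line; bars give the percent of the other genes tested per bin of 0.1, with values beyond 2.5 gathered in the end bins, and ticks the members, coloured where called. The dashed line marks the median of the members and the solid line that of the other genes; the members' median lay to the right of the others in all 4 panels.

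**Figure D2:**
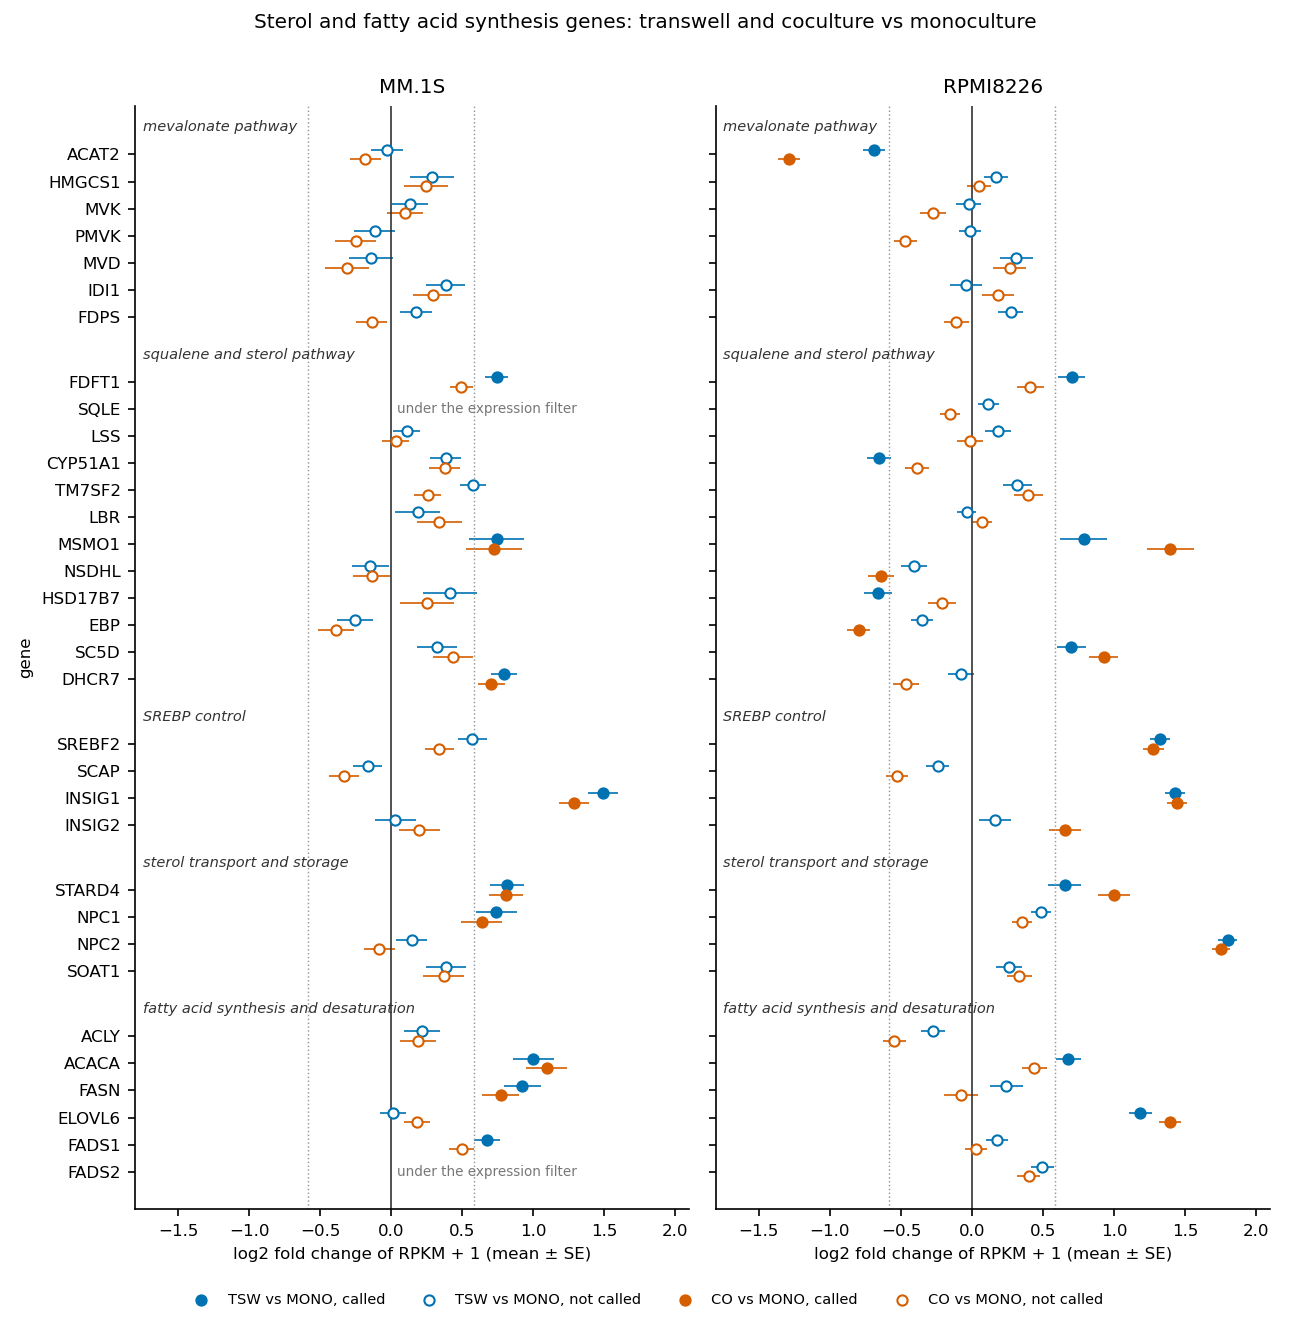
Log2 fold change with its standard error (x axis) of each of the 33 genes by role, for TSW vs MONO (blue) and CO vs MONO (orange); filled points are called, open points are not, and dotted lines mark a fold change of 1.5. INSIG1, STARD4 and MSMO1 were called higher in TSW and CO of both lines, and SQLE and FADS2 of MM.1S were under the expression filter.

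Replicate 1 of MM.1S MONO was the shallowest library, with 9008977 tags. It had the lowest HMGCS1 of the line at an RPKM of 8.15, where the other 8 libraries held at least 12.0. It also had the lowest LBR at 64.8 against at least 96.2. For other members it was the highest MONO library, with EBP at 147, PMVK at 65.4, NSDHL at 28.4 and NPC2 at 40.8. Its sum over the 33 genes was 827, beside 844 and 816 in MONO replicates 2 and 3. Whether this library differs from the rest was not tested. Without MONO replicate 1, 8 members were called higher in MM.1S TSW vs MONO and 6 in CO vs MONO, the lost gene being NPC1 in both.

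Among the SREBP control genes, INSIG1 rose in every comparison with MONO. INSIG1, the sterol-sensing retention protein that is itself switched on by SREBP, had an RPKM of 28.6, 32.5 and 34.7 in MM.1S MONO, 80.5, 102 and 92.3 in TSW and 78.3, 79.9 and 79.5 in CO. RPMI8226 libraries had 73.2 and 70.3 in MONO, 189 and 200 in TSW and 188 and 206 in CO. Every coculture library of either line lay above every MONO library of that line. The log2 fold change was 1.49 (SE 0.11, adjusted p = 3.60e-06) in TSW and 1.29 (SE 0.11, adjusted p = 9.38e-06) in CO of MM.1S, and in RPMI8226 it was 1.43 (SE 0.07, adjusted p = 7.15e-08) and 1.44 (SE 0.07, adjusted p = 4.71e-08). Each of these is a gain of more than 2-fold and was called.

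SREBF2 encodes the SREBP that mainly drives cholesterol synthesis. Its RPKM in RPMI8226 was 41.7 and 41.7 in MONO, 100.1 and 112 in TSW and 104 and 101 in CO, with both coculture groups far above MONO and overlapping each other. It rose there on the log2 scale by 1.32 (SE 0.07, adjusted p = 1.35e-07) in TSW and 1.28 (SE 0.07, adjusted p = 1.18e-07) in CO. In MM.1S it was 25.8, 32.5 and 29.2 in MONO, 43.5, 45.8 and 41.5 in TSW and 36.4, 40.2 and 34.7 in CO. MONO was lowest and TSW highest without overlap, but the log2 fold changes of 0.57 (adjusted p = 0.00229) and 0.34 (adjusted p = 0.0280) fell short of 1.5-fold. SREBF2 was called in MM.1S TSW with the loess correction at 0.62, without MONO replicate 2 at 0.65 and without TSW replicate 3 at 0.60.

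INSIG2, a second retention protein, had an RPKM of 3.76 and 3.45 in RPMI8226 MONO, 4.71 and 3.64 in TSW and 6.13 and 6.36 in CO. CO stood above both other groups, whereas TSW overlapped MONO. It was called in CO vs MONO at 0.65 (SE 0.11, adjusted p = 0.000416), and in CO vs TSW it was called with voom at 0.59 and without TSW replicate 1 at 0.64. In MM.1S the groups overlapped at 11.0, 9.86 and 12.3 in MONO, 9.42, 11.1 and 13.6 in TSW and 13.6, 10.8 and 14.2 in CO. SCAP, the escort, had a log2 fold change of -0.33 in MM.1S CO vs MONO (adjusted p = 0.0344), -0.24 in RPMI8226 TSW (adjusted p = 0.0200) and -0.53 in RPMI8226 CO (adjusted p = 0.000148), all under 1.5-fold.

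Promoter sequences are shown for genes called in opposite directions, so that their letters can be read beside the values. RefSeq promoters (GRCh38.p14) were found for 29 of the 33 genes, with 40 start sites in all, and not for ACAT2, FDFT1, SQLE and FASN. Each window spans 250 bases before to 50 after the start. TCACNCCAC, the core of a classical sterol regulatory element, and CCAAT were searched on both strands. The lines below give the 250 bases before the start, 5′ to 3′ on the gene's strand, with matches in capitals (CCAAT on the opposite strand reads ATTGG). INSIG1 (chr7:155297628-155297877, plus strand), SREBF2 (chr22:41832855-41833104, plus), MSMO1 (chr4:165327419-165327668, plus) and STARD4 (chr5:111512536-111512785, minus) were called higher in at least 1 comparison, and EBP (chrX:48521558-48521807, plus) and NSDHL (chrX:152830813-152831062, plus) were called lower in 1.
INSIG1: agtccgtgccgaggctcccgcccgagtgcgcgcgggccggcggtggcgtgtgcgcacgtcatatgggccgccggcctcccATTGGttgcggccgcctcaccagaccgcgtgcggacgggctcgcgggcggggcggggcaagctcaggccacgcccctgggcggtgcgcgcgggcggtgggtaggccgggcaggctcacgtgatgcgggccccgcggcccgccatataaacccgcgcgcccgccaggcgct
SREBF2: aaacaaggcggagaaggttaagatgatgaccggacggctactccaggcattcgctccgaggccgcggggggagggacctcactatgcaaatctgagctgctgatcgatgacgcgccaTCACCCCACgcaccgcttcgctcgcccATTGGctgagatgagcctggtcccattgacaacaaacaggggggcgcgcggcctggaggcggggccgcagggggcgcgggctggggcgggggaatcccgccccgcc
MSMO1: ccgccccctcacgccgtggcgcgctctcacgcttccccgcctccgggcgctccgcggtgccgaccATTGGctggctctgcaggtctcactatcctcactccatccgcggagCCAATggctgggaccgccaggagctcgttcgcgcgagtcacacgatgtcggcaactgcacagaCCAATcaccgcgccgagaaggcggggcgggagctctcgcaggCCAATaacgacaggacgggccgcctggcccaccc
STARD4: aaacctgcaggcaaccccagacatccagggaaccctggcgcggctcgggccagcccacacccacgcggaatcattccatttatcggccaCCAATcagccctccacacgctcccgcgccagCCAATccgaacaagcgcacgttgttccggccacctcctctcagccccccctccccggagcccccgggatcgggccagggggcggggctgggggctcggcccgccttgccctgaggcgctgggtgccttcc
EBP: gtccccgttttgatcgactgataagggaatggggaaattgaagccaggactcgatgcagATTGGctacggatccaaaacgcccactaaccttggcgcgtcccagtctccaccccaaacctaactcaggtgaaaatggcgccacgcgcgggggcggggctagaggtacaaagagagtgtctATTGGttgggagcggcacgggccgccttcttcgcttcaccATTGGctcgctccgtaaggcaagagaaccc
NSDHL: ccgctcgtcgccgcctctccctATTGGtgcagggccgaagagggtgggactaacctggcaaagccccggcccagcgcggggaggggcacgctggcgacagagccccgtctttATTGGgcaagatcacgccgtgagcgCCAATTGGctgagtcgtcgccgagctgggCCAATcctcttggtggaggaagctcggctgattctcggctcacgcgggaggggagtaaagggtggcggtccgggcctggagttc

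TCACNCCAC was found in 1 of the 40 member windows, that of SREBF2, or 2.5%, beside 1.13% of all 35116 windows of the table. CCAAT was found in 25 of the 40, or 62.5%, beside 34.6% of all windows. Windows of the same gene can overlap. By gene, 21 of 29 members held CCAAT, or 72.4%, beside 39.7% of all genes with a window. In the stretches shown INSIG1 and SREBF2 hold 1 copy each, MSMO1 4, STARD4 2, EBP 3 and NSDHL 5, of which 2 overlap in the run CCAATTGG. Copies were thus present in promoters of genes that rose and of genes that fell. They were also absent from windows of genes called in either direction. ELOVL6, NPC1, FADS1 and INSIG2, called higher, and CYP51A1, called lower, had no CCAAT match. A match describes letters and was not tested as a binding site.

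None of the mevalonate genes was called higher. The limma count was 0 of 7 in each comparison with MONO and 0 with voom. The unadjusted p was under 0.05 for 1 gene in TSW and 0 in CO of MM.1S, and for 3 and 4 in RPMI8226. Over all genes tested it was under 0.05 for 4095 and 4467 of 10153 in MM.1S. In RPMI8226 it was so for 7234 and 7605 of 10319. With 6.48% and 7.13% of all genes tested called higher in TSW and CO of MM.1S and 14.5% and 16.4% in RPMI8226, a count of 0 among 7 genes is near the share over all genes. Their median log2 fold change was 0.13 in TSW and -0.14 in CO of MM.1S, and -0.02 and -0.11 in RPMI8226. ACAT2, the thiolase that joins acetyl-CoA units, fell in RPMI8226. Its RPKM there was 55.4 and 53.7 in MONO, 32.3 and 34.7 in TSW and 20.5 and 22.9 in CO, 3 levels without overlap. It was called in TSW vs MONO at -0.69 (SE 0.08, adjusted p = 2.58e-05), in CO vs MONO at -1.29 (SE 0.08, adjusted p = 1.96e-07) and in CO vs TSW at -0.60 (SE 0.08, adjusted p = 0.000738). In MM.1S ACAT2 was 20.2, 22.1 and 20.3 in MONO, 20.7, 19.2 and 21.4 in TSW and 15.8, 21.3 and 18.1 in CO, and the groups overlapped.

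The ACAT2 gene (chr6:159762045-159779112) overlaps TCP1, which encodes a chaperonin subunit, and SOD2, a mitochondrial superoxide dismutase, and the counting is not stated to use strand, so tags of the overlap cannot be told apart. The same holds for the other members that overlap a protein-coding gene, which are MVK, IDI1, NPC1, NPC2, ACACA, FADS1 and FADS2. In RPMI8226 TCP1 was called lower at -1.19 in TSW and -1.52 in CO, and in CO vs TSW it was at -0.34 (adjusted p = 0.00564), under 1.5-fold. SOD2 was called lower in TSW at -0.84, while CO vs MONO was at -0.28 (adjusted p = 0.0108), under 1.5-fold, and CO vs TSW at 0.56 (adjusted p = 0.0012), opposite in sign to ACAT2. With the loess correction ACAT2 was -0.50 in TSW vs MONO and, comparing CO with TSW, -0.56, and neither passed 1.5-fold, and in CO vs TSW it was -0.56 with median-of-ratios scaling, -0.55 with quantile normalization, -0.55 without RPMI8226 TSW replicate 2 and -0.53 without CO replicate 1.

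Of the rest of the branch, HMGCS1, which makes HMG-CoA, ran from an RPKM of 8.15 to 15 in MM.1S libraries, RPMI8226 libraries from 29.1 to 35.3, and no log2 fold change against MONO passed an adjusted p of 0.05. MVD, the mevalonate decarboxylase, was at 0.31 in RPMI8226 TSW (adjusted p = 0.0343), and PMVK, phosphomevalonate kinase, at -0.47 in CO (adjusted p = 0.000368), both under 1.5-fold. MVK, which phosphorylates mevalonate, was at -0.28 in RPMI8226 CO (adjusted p = 0.0176). FDPS, which makes farnesyl diphosphate and has the highest level of the group, held a mean RPKM of 110 in MM.1S and 129 in RPMI8226. FDPS and IDI1, the isomerase before it, have 10 and 3 RefSeq pseudogenes named after them, and their values are uncertain to that extent. IDI1 ran from an RPKM of 5.42 to 9.24 in MM.1S, RPMI8226 libraries from 8.02 to 10.6, and passed an adjusted p of 0.05 in no comparison.

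Against MONO, genes of the squalene and sterol branch were called only higher in MM.1S and in both directions in RPMI8226. Of 11 tested in MM.1S, 27.3% were called higher in TSW and 18.2% in CO, beside 6.48% and 7.13% of all genes tested. The count called lower was 0 in TSW and 0 in CO, beside 4.16% and 4.65% of all genes tested. For 11 genes a count of 0 is near that share. Of 12 in RPMI8226, 25.0% were called higher and 16.7% lower in TSW, beside 14.5% and 17.9%. In RPMI8226 CO 16.7% were called in each direction, beside 16.4% and 22.9%. Apart from the TSW increases, the RPMI8226 shares lay near or below those over all genes. MSMO1, a sterol methyl oxidase, had an RPKM of 23.9, 14.3 and 20.3 in MM.1S MONO, 26.1, 32.6 and 40.7 in TSW and 38.0, 28.8 and 30.6 in CO. In RPMI8226 it was 20.9 and 14.1 in MONO, 35.0 and 26.3 in TSW and 45.0 and 48.5 in CO. MONO was lowest without overlap in both lines, and in RPMI8226 CO also stood above TSW. The log2 fold change was 1.39 (SE 0.17, adjusted p = 2.64e-05) in RPMI8226 CO vs MONO, 0.79 (SE 0.17, adjusted p = 0.00174) in TSW vs MONO and 0.61 (SE 0.17, adjusted p = 0.0223) in CO vs TSW.

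In MM.1S the MSMO1 increase was 0.74 (SE 0.20, adjusted p = 0.0175) in TSW and 0.73 (SE 0.20, adjusted p = 0.0176) in CO, and both calls were lost without single libraries. In TSW vs MONO it was 0.54 (adjusted p = 0.0519) without MONO replicate 2, under 1.5-fold. Without TSW replicate 2 it was 0.74 (adjusted p = 0.0556) and without TSW replicate 3 0.59 (adjusted p = 0.0781), both over 1.5-fold. In CO vs MONO it was 0.53 (adjusted p = 0.0523) without MONO replicate 2, under 1.5-fold, and 0.61 (adjusted p = 0.079) without CO replicate 1. In RPMI8226 MSMO1 TSW vs MONO was 0.52 without MONO replicate 2, under 1.5-fold. Its CO vs TSW value was 0.41 without TSW replicate 2, 0.66 without CO replicate 1 and 0.55 without CO replicate 2. It was called in none of these. With no filter the CO vs TSW value was 0.61 (adjusted p = 0.13), and with the loess correction it was 0.49, under 1.5-fold.

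FDFT1, which makes squalene, rose in TSW of both lines. It had an RPKM of 22.4, 23.4 and 24.5 in MM.1S MONO, 40.3, 40.7 and 38.6 in TSW and 32.5, 35.4 and 32.4 in CO. RPMI8226 held 40.9 and 42.8 in MONO, 62.3 and 75.5 in TSW and 53.1 and 58.7 in CO. The order was the same in each line, with TSW highest and MONO lowest and no overlap. FDFT1 was called in TSW at 0.74 (SE 0.08, adjusted p = 8.49e-05) in MM.1S and 0.70 (SE 0.09, adjusted p = 8.56e-05) in RPMI8226, and the CO values of 0.49 and 0.41 were under 1.5-fold. Without RPMI8226 TSW replicate 2 its value was 0.57 and not called.

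DHCR7, a reductase at the end of cholesterol synthesis, rose in MM.1S. Its RPKM was 22.6, 25.7 and 23.5 in MONO, 45.6, 43.0 and 38.2 in TSW and 37.4, 40.4 and 40.9 in CO, with all coculture libraries above MONO. It was called at 0.80 (SE 0.09, adjusted p = 0.000151) in TSW and 0.70 (SE 0.09, adjusted p = 0.000341) in CO. In RPMI8226 it was 45.7 and 46.7 in MONO, 39.6 and 48.4 in TSW and 32.9 and 33.4 in CO, where CO lay below both other groups. The RPMI8226 CO value of -0.47 (adjusted p = 0.000941) was under 1.5-fold.

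SC5D, a sterol desaturase, rose in RPMI8226, from 2.63 and 2.32 in MONO to 5.0 and 4.30 in TSW and 5.57 and 5.63 in CO. The groups did not overlap, and it was called at 0.70 (SE 0.10, adjusted p = 0.000151) in TSW and 0.93 (SE 0.10, adjusted p = 1.53e-05) in CO. In MM.1S SC5D was 2.78, 3.04 and 3.99 in MONO, 3.59, 4.23 and 5.22 in TSW and 4.95, 4.27 and 4.98 in CO, and TSW overlapped MONO. Its MM.1S CO value was 0.43 (adjusted p = 0.0370), under 1.5-fold. TM7SF2, a sterol reductase, was close to the threshold, with 0.58 in MM.1S TSW (adjusted p = 0.00123), and it was called there with a pseudocount of 0.1 at 0.69, with voom at 0.70, with the loess correction at 0.67, without MONO replicate 2 at 0.60 and without TSW replicate 3 at 0.61. In RPMI8226 TM7SF2 was at 0.32 in TSW (adjusted p = 0.0181) and 0.40 in CO (adjusted p = 0.00517), and it was called in CO with the loess correction at 0.73.

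Other enzymes of the branch fell in RPMI8226. CYP51A1, the lanosterol demethylase, had an RPKM of 24.8 and 22 in MONO, 15 and 13.9 in TSW and 17.5 and 17.7 in CO. Both coculture groups lay below MONO, and TSW was called at -0.66 (SE 0.08, adjusted p = 6.03e-05). In MM.1S it was 20.1, 16.5 and 22.3 in MONO, 23.8, 26.1 and 27.5 in TSW and 26.4, 25.4 and 25.0 in CO. There the coculture groups lay above MONO, at 0.38 (adjusted p = 0.0256) and 0.38 (adjusted p = 0.0260), under 1.5-fold. The difference between the lines was not tested.

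HSD17B7, a sterol ketone reductase, was 4.63 and 5.25 in RPMI8226 MONO, 2.74 and 2.74 in TSW and 3.92 and 4.32 in CO. TSW was the lowest group, and TSW vs MONO was called at -0.66 (SE 0.10, adjusted p = 0.000179), and with voom HSD17B7 was called higher in CO vs TSW at 0.59. In MM.1S HSD17B7 was 8.89, 5.01 and 8.36 in MONO, 10.4, 11.0 and 8.58 in TSW and 7.21, 10.4 and 9.06 in CO, with overlap. CYP51A1 and HSD17B7 have 3 and 2 RefSeq pseudogenes named after them and are uncertain to that extent.

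EBP, a sterol isomerase, and NSDHL, a sterol dehydrogenase, both on the X chromosome, were lowest in RPMI8226 CO. EBP was 159.6 and 151 in MONO, 113 and 131 in TSW and 87.7 and 89.9 in CO, and NSDHL was 30.4 and 28.4, 20.9 and 23.0 and 17.1 and 20.003. In neither gene did MONO overlap a coculture group. CO vs MONO was called at -0.80 (SE 0.08, adjusted p = 6.82e-06) for EBP and -0.64 (SE 0.09, adjusted p = 0.000107) for NSDHL. In MM.1S EBP was 147, 119.7 and 99.9 in MONO, 106, 97.6 and 100.2 in TSW and 87.6, 95.7 and 93.6 in CO, and its CO value was -0.38 (adjusted p = 0.04), under 1.5-fold. NSDHL in MM.1S was 28.4, 22.9 and 19.0 in MONO, 22.7, 19.8 and 19.97 in TSW and 21.7, 21.3 and 19.8 in CO, and all groups overlapped.

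The RPMI8226 decreases of this branch lost their calls with the loess correction. With it, CYP51A1 TSW was -0.54, HSD17B7 TSW -0.48, EBP CO -0.47 and NSDHL CO -0.33, all under 1.5-fold. CYP51A1 TSW was also -0.58 with median-of-ratios scaling and -0.57 without MONO replicate 1. NSDHL CO was -0.53 with median-of-ratios scaling, -0.52 with quantile normalization and -0.53 without CO replicate 1. The direction held in each of these.

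**Figure D3:**
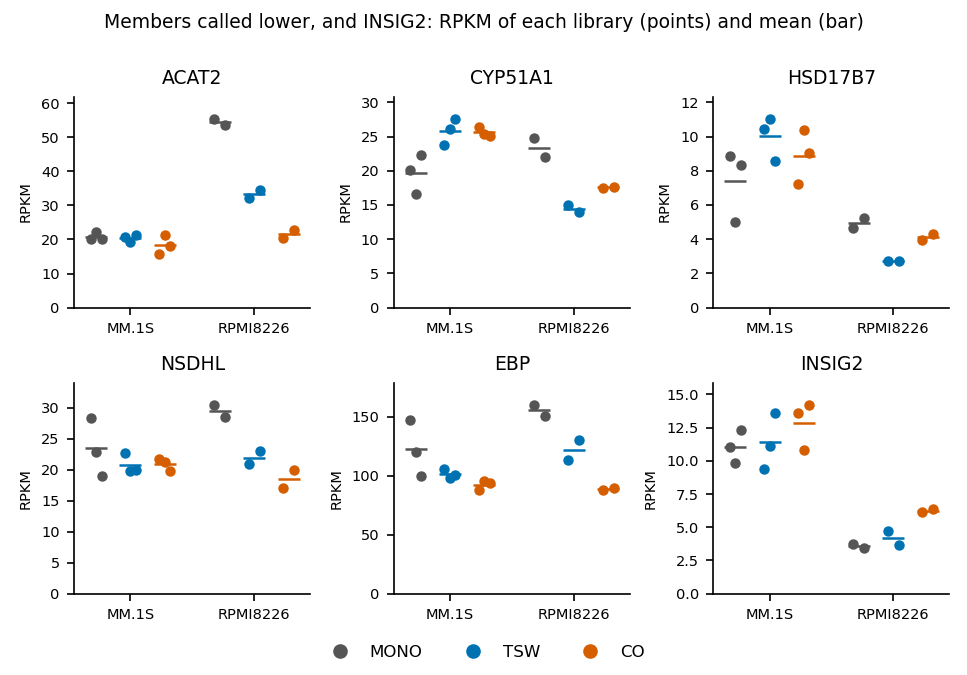
RPKM (y axis, from 0) of each library of MONO, TSW and CO in MM.1S and RPMI8226 for the 5 members called lower and for INSIG2; points are libraries and bars are means of 3 libraries in MM.1S and 2 in RPMI8226. ACAT2, CYP51A1, HSD17B7, NSDHL and EBP lay below MONO in every RPMI8226 coculture library, and INSIG2 was highest in RPMI8226 CO among the groups of that line.

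LSS, the cyclase that makes lanosterol, and LBR, a sterol reductase of the nuclear envelope, did not pass an adjusted p of 0.05 in any comparison. LSS ran from an RPKM of 10.4 to 13.1 in MM.1S, RPMI8226 libraries from 10.5 to 13.5. LBR had the highest mean of the branch in RPMI8226, at 171, and EBP in MM.1S, at 105. SQLE, the oxygenase that acts on squalene, ran from an RPKM of 0.488 to 1.19 in MM.1S, under the filter, and from 21.6 to 26.5 in RPMI8226, where no comparison with MONO passed an adjusted p of 0.05.

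Sterol carriers rose in both lines, with NPC1 called in MM.1S and NPC2 in RPMI8226, a difference between lines that was not tested. STARD4, a cytosolic cholesterol carrier, had an RPKM of 1.77, 2.17 and 2.64 in MM.1S MONO, 4.17, 4.73 and 4.90 in TSW and 5.05, 4.13 and 4.54 in CO. In RPMI8226 it was 4.91 and 4.40 in MONO, 8.94 and 6.94 in TSW and 9.97 and 10.6 in CO. MONO was lowest without overlap in each line. STARD4 was called at 0.82 (SE 0.12, adjusted p = 0.000692) and 0.81 (SE 0.12, adjusted p = 0.000739) in TSW and CO of MM.1S, and at 0.65 (SE 0.12, adjusted p = 0.000563) and 1.0 (SE 0.12, adjusted p = 2.13e-05) in RPMI8226. The MM.1S CO value was 0.48 with the loess correction, and the RPMI8226 TSW value 0.49 without TSW replicate 1, both under 1.5-fold.

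NPC2 hands cholesterol to NPC1 inside the lysosome, and NPC1 passes it out through the membrane. NPC2 was 63.9 and 66.3 in RPMI8226 MONO, 221 and 237 in TSW and 221 and 222 in CO. It showed the largest fold change of the 33 genes in any comparison, with 1.8 (SE 0.07, adjusted p = 8.12e-09) in TSW and 1.75 (SE 0.07, adjusted p = 7.86e-09) in CO. In MM.1S NPC2 was 40.8, 34.7 and 31.5 in MONO, 40.6, 40.0 and 37.5 in TSW and 30.8, 37.1 and 32.7 in CO, with overlap, and its values of 0.14 and -0.08 were not called.

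NPC1 was 4.17, 6.92 and 6.59 in MM.1S MONO, 10.4, 10.3 and 10.3 in TSW and 9.35, 9.74 and 9.58 in CO. It was called at 0.74 (SE 0.14, adjusted p = 0.00369) and 0.64 (SE 0.14, adjusted p = 0.00767), but without MONO replicate 1, its lowest library, the values were 0.55 and 0.44 and under 1.5-fold. The CO value was also 0.57 with quantile normalization and 0.56 with the loess correction. In RPMI8226 NPC1 was 34.8 and 37.7 in MONO, 49.7 and 52.6 in TSW and 46.8 and 46.3 in CO, without overlap, at 0.49 (adjusted p = 0.000165) and 0.35 (adjusted p = 0.00124). SOAT1, which esterifies cholesterol for storage, was at 0.26 (adjusted p = 0.0262) and 0.33 (adjusted p = 0.00689) in RPMI8226, under 1.5-fold, and did not pass an adjusted p of 0.05 in MM.1S.

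Of the fatty acid genes ACACA, FASN and FADS1 rose in MM.1S and ACACA and ELOVL6 in RPMI8226, and the difference between the lines was not tested. ACACA, the acetyl-CoA carboxylase that makes malonyl-CoA, had an RPKM of 4.26, 6.63 and 6.60 in MM.1S MONO, 13.3, 12.4 and 11.8 in TSW and 12.2, 13.1 and 14.9 in CO. In RPMI8226 it was 16.3 and 19.2 in MONO, 28.0 and 29.8 in TSW and 23.7 and 25.1 in CO. MONO lay lowest in both lines with no overlap. ACACA was called at 1.0 (SE 0.14, adjusted p = 0.000589) and 1.1 (SE 0.14, adjusted p = 0.000315) in MM.1S and at 0.68 (SE 0.09, adjusted p = 7.21e-05) in RPMI8226 TSW, and the RPMI8226 CO value of 0.44 was under 1.5-fold, as was the TSW value of 0.57 without MONO replicate 1.

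FASN, the synthase that builds palmitate, was 28.7, 41.0 and 36.9 in MM.1S MONO, 66.6, 72.4 and 64.3 in TSW and 58.1, 68.5 and 56.5 in CO. All coculture libraries were above MONO, and it was called at 0.92 (SE 0.13, adjusted p = 0.000499) and 0.77 (SE 0.13, adjusted p = 0.00158). In RPMI8226 FASN was 79.7 and 87.8 in MONO, 87.0 and 113 in TSW and 73.9 and 84.9 in CO, and both coculture groups overlapped MONO.

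FADS1, a desaturase of polyunsaturated fatty acids, was 6.62, 7.30 and 7.38 in MM.1S MONO, 11.3, 12.5 and 11.9 in TSW and 10.9, 10.3 and 10.0 in CO. MONO lay below the rest, and the gene was called in TSW at 0.67 (SE 0.09, adjusted p = 0.000330), while CO was at 0.50 and under 1.5-fold. In RPMI8226 it was 32.3 and 32.6 in MONO, 35.3 and 38.3 in TSW and 31.7 and 34.7 in CO, and CO overlapped MONO. FADS2, the neighbouring desaturase whose gene overlaps FADS1, ran from an RPKM of 0.288 to 0.720 in MM.1S, under the filter, and from 62.3 to 96.7 in RPMI8226, where it was at 0.50 in TSW (adjusted p = 0.000394) and 0.40 in CO (adjusted p = 0.00145), under 1.5-fold. FADS2 was called in TSW at 0.62 without RPMI8226 TSW replicate 1 and in CO at 0.60 with the loess correction.

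ELOVL6, which lengthens palmitate to stearate, rose in RPMI8226, from 17.2 and 16.2 in MONO to 41.2 and 37.3 in TSW and 47.0 and 43.9 in CO. MONO was far below the other groups, and it was called at 1.19 (SE 0.08, adjusted p = 5.55e-07) and 1.39 (SE 0.08, adjusted p = 1.21e-07). In MM.1S it was 9.33, 9.35 and 9.50 in MONO, 9.58, 8.68 and 10.3 in TSW and 11.2, 10.2 and 11.0 in CO, and the values of 0.01 and 0.18 were not called. ACLY, which supplies acetyl-CoA from citrate, had the highest level of the group in each line when all its libraries were averaged. In RPMI8226 CO its mean RPKM was 82.4, beside 82.9 for FADS2. The log2 fold change of ACLY was -0.28 (adjusted p = 0.0124) in TSW and -0.55 (adjusted p = 0.000144) in CO of RPMI8226, under 1.5-fold.

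**Figure D4:**
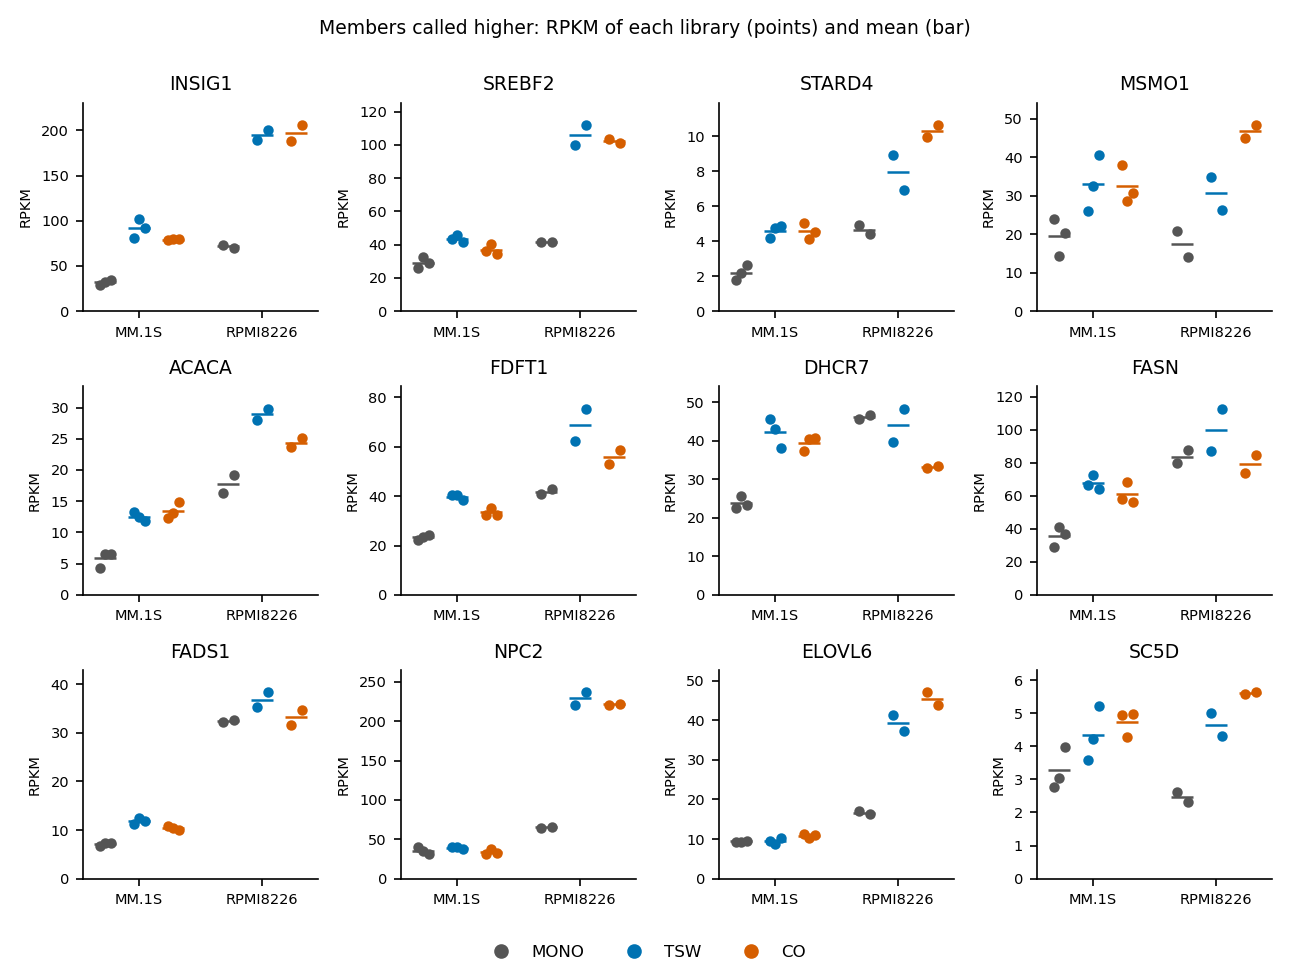
RPKM (y axis, from 0) of each library of MONO, TSW and CO in MM.1S and RPMI8226 for 12 members called higher in at least 1 comparison; points are libraries and bars are means of 3 libraries in MM.1S and 2 in RPMI8226. INSIG1, STARD4, MSMO1, ACACA and FDFT1 lay above MONO in every coculture library of both lines, while NPC2 and ELOVL6 did so in RPMI8226 with TSW overlapping MONO in MM.1S.

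Counted over the 6 comparisons, 19 of the 33 genes were called at least once and 14 were not. The share of all genes called at least once was not counted, so this number is not read as a feature of the members. In RPMI8226 TSW vs MONO 14.5% of all genes tested were called higher and 17.9% lower, and in CO vs MONO 16.4% and 22.9%. The 5 genes called higher in TSW of both lines were FDFT1, MSMO1, INSIG1, STARD4 and ACACA, and the 3 called higher in CO of both were MSMO1, INSIG1 and STARD4. How many of all genes were called higher in both lines was not counted. The summed RPKM of the 33 genes was 827, 844 and 816 in MM.1S MONO, 1017, 1049.6 and 1026 in TSW and 919.9, 994 and 954 in CO, and in RPMI8226 it was 1407 and 1381, 1751 and 1899.7 and 1647 and 1709. For this total TSW was the highest and MONO the lowest group in each line, without overlap. NPC2 and INSIG1 carried a large part of the RPMI8226 rise. Their mean RPKM there was 65.1 and 71.8 in MONO, 229 and 195 in TSW and 221 and 197 in CO. Of the 33 genes, 12 had a log2 fold change below 0 in RPMI8226 TSW and 14 in CO. The order of the groups in the total did not hold for every role. In RPMI8226 the mevalonate genes summed to 267 and 262 in MONO and 209 and 224 in CO. The squalene and sterol genes summed to 551 and 524 in MONO and 491 and 504 in CO there. The sums of SREBP control, of sterol transport and storage and of the fatty acid genes were lowest in MONO of RPMI8226.

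In monoculture most of these genes had higher RPKM in RPMI8226 than in MM.1S, on tables normalized separately and with no test. FADS2 was at 0.399, 0.351 and 0.349 in MM.1S and 63.0 and 62.3 in RPMI8226, and SQLE at 0.853, 0.488 and 0.507 and 25.0 and 23.8. PMVK, INSIG2, HSD17B7, SC5D, MSMO1, SCAP and LSS were the other way round, with PMVK at 65.4, 49.2 and 42.7 in MM.1S and 29.6 and 32.9 in RPMI8226. Over all their libraries the tested members had a median mean RPKM of 19.3 in MM.1S and 31.6 in RPMI8226, beside 10.9 and 10.4 for all genes tested.

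**Figure D5:**
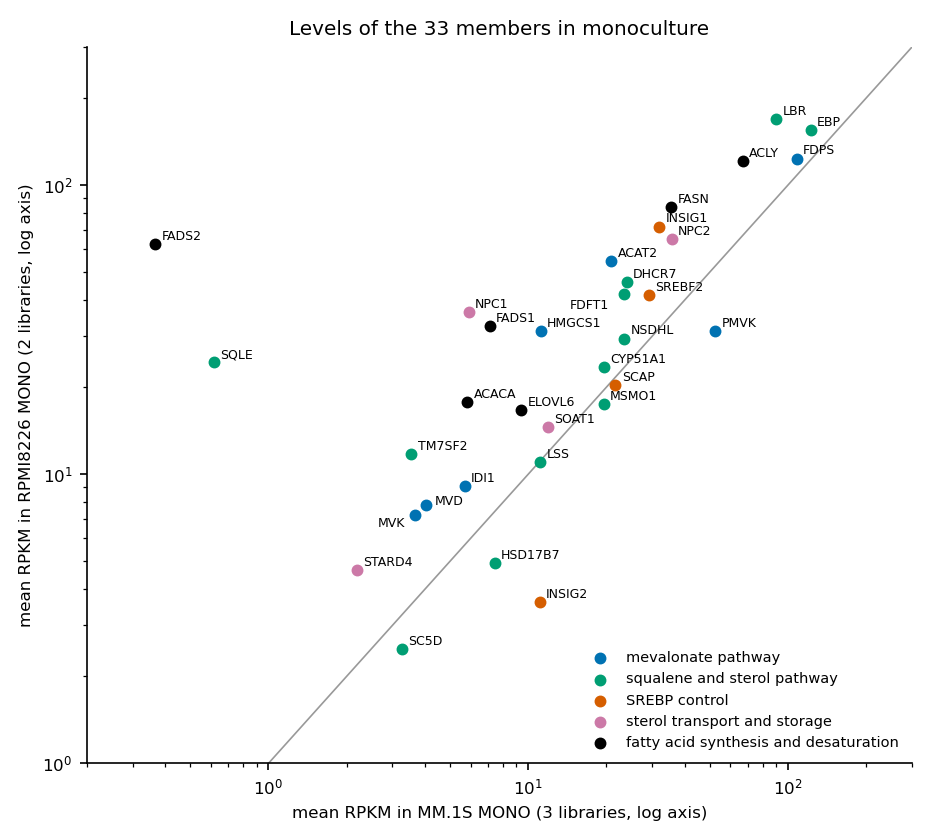
Mean RPKM of each of the 33 genes in MONO of MM.1S (x axis, log scale, 3 libraries) and RPMI8226 (y axis, log scale, 2 libraries), coloured by role; the line marks equal values. FADS2 and SQLE lie farthest from the line, at less than 1 in MM.1S and above 20 in RPMI8226.

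Other genes of sterol and fatty acid metabolism were called in both directions. Of 30 listed genes, 27 were tested in MM.1S, and 7 were called higher and 1 lower in TSW, and 7 higher and 2 lower in CO, where 6.48% and 4.16% of all genes tested were called higher and lower in TSW and 7.13% and 4.65% in CO. In RPMI8226 26 were tested, and 6 were called higher and 3 lower in TSW, and 5 higher and 3 lower in CO, beside 14.5% and 17.9% of all genes tested in TSW and 16.4% and 22.9% in CO. The median log2 fold change was 0.11 and 0.06 in MM.1S and 0.10 and 0.09 in RPMI8226. In CO vs TSW limma called 0 in either line, with an unadjusted p under 0.05 for 1 gene in MM.1S and 8 in RPMI8226. Over all genes tested the unadjusted p was under 0.05 for 450 of 10153 in MM.1S and 4169 of 10319 in RPMI8226.

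SREBF1 and SCD rose in TSW and CO of both lines. SREBF1 encodes the SREBP of fatty acid synthesis, and its mean RPKM (± SD) went from 4.31 ± 0.624 in MM.1S MONO to 28.6 ± 1.70 in TSW and 26.1 ± 2.03 in CO, and from 44.3 ± 2.84 in RPMI8226 MONO to 94.9 ± 6.46 and 103 ± 5.27. SCD, which makes oleate, went from 33.7 ± 6.68 to 183 ± 9.99 and 169.9 ± 1.40 in MM.1S, and from 139.9 ± 2.14 to 303 ± 1.24 and 345 ± 3.76 in RPMI8226. The log2 fold change in MM.1S TSW was 2.48 for SREBF1 and 2.42 for SCD, each above that of all 31 members tested. In RPMI8226 TSW these were 1.08 and 1.11.

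Further increases in MM.1S TSW were IDH1 and ME1, which supply NADPH, at 1.03 and 0.97, the fatty acid activating enzyme ACSL3 at 0.95 and MBTPS2, a protease that cleaves SREBP, at 0.92. The same genes were called in CO, at 0.75, 0.97, 1.0 and 0.87. DBI, an acyl-CoA binding protein, was called lower at -0.62 and -0.69. In RPMI8226 TMEM97, a sterol-responsive membrane protein, fell by 1.30 in TSW and 1.75 in CO on the log2 scale. MCAT of the mitochondrial fatty acid pathway was at -0.88 and -1.23, and the dehydratase HACD3 at -0.72 and -0.71, whereas TECR, the last enzyme of the elongation cycle, was higher at 0.64 and 0.60. ACSS2, which makes acetyl-CoA from acetate, was called higher in RPMI8226 TSW at 0.61, the phosphatase LPIN1 in TSW at 0.59 and MBTPS2 in CO at 0.60.

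Genes of the liver X receptors (LXR), which answer to oxysterols and export cholesterol, were mostly called higher. Of 8 listed, 5 of the 7 tested were called higher in TSW and in CO of MM.1S, and 6 of 8 in TSW and in CO of RPMI8226. ABCA1 passed the filter only through its TSW and CO values in both lines, and so did ABCG1 in MM.1S (MONO mean RPKM 0.233). These genes were tested only because they were high there, so their calls add no weight to the counts. Over all genes tested 6.48% and 7.13% were called higher in TSW and CO of MM.1S and 14.5% and 16.4% in RPMI8226. In these comparisons limma called 0 of the list lower, with 0 of the MM.1S fold changes and 1 of those in RPMI8226 TSW below 0. Over all genes tested 4.16% and 4.65% were called lower in TSW and CO of MM.1S, and 17.9% and 22.9% in RPMI8226. ABCA1, the cholesterol exporter, went from 0.0981 ± 0.0147 in MM.1S MONO to 10.7 ± 0.771 in TSW and 9.29 ± 0.397 in CO, and from 0.937 ± 0.120 to 20.2 ± 0.569 and 23.9 ± 0.564 in RPMI8226, with log2 fold changes of 3.41 and 3.23 in MM.1S and 3.45 and 3.68 in RPMI8226. ABCG1, a second exporter, was at 1.70 and 1.69 in TSW and CO of MM.1S and at 1.73 and 1.96 in RPMI8226. MYLIP, a ubiquitin ligase induced by LXR, was at 1.23 and 1.18 in MM.1S and 0.67 and 0.87 in RPMI8226. The other calls in TSW and CO were LPCAT3 in both lines, NCEH1 in MM.1S, and NR1H2 and SMPDL3A in RPMI8226. In CO vs TSW limma called 0 of the list in either line, with an unadjusted p under 0.05 for 0 genes in MM.1S and 4 in RPMI8226. Over all genes tested it was under 0.05 for 450 of 10153 in MM.1S and 4169 of 10319 in RPMI8226.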

How the data were processed

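Paired-end RNA-Seq reads were aligned to hg38 with Subread and counted per RefSeq gene with featureCounts, according to the submitters' processing notes and the study's methods. Strand use in counting is not given in the sources used here. The authors deposited log2 values of RPKM with 1 added, shifted by 0.0001, in a table for each cell line, and 0 columns belonged to no known sample. RPKM was recovered from them, and the whole tags behind 99.99% of the values above 0 within a tolerance of 0.05. Library totals in these tables ran from 9008977 to 19050772 tags.

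All 3 conditions of a line entered a limma fit of log2(RPKM + 1) with a trended prior (limma 3.58.1 in R 4.3.3), with genes of a mean RPKM of 1 or more. P-values were adjusted by the Benjamini-Hochberg method within each comparison. Tables and figures were made with Python 3.11.15, numpy 2.4.6, pandas 2.3.3 and matplotlib 3.10.9, and the fit was tested on simulated data.

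The members and lists (roles, other genes of the metabolism, LXR genes, plasma cell, mature B cell and stromal markers) were chosen with earlier results of these data known. Members called in any comparison are given by library, others by range, fold change or level. Genes of the other lists are named where called, up to 8 per comparison by size of fold change. Some genes of the lists are not reported here.

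Alternatives were a pseudocount of 0.1, no filter or a mean RPKM of 5, median-of-ratios scaling, quantile normalization, a loess correction for GC content and length (span 0.3), voom on recovered tags, a replicate block, fits of 2 conditions, no trend, no fold change threshold, and leaving out each library.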

Additional observations from a re-analysis of the deposited data

Results flagged for a closer look

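CYP51A1 had fold changes of opposite sign in the cell lines. Its log2 fold change in TSW vs MONO was 0.38 in MM.1S and -0.66 in RPMI8226, and in CO vs MONO it was 0.38 and -0.39. Every coculture library lay above every MONO library in MM.1S and below in RPMI8226. The difference between the lines was not tested.

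DHCR7 in CO vs MONO had a log2 fold change of 0.70 in MM.1S and -0.47 in RPMI8226, again with every library on opposite sides of MONO, and this difference was not tested either. Groups of 2 or 3 libraries are too small to test for a library far from the rest.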

How the results depend on the processing

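Of 41 called fold changes of members, 29 kept the call without any single library. A mean RPKM of 5 left 6 of the 41 untested, and 28 of the other 35 kept the call under every alternative beside left-out libraries. The alternatives were run on 85 values of members, those called in any setting, and 0 of them changed sign. With RPMI8226 a left-out library leaves its condition with 1 library, which is assumed to vary like the others. Leaving out single libraries gave 8 to 10 members higher in MM.1S TSW vs MONO, 6 to 7 in CO vs MONO, 8 to 9 higher and 2 to 3 lower in RPMI8226 TSW vs MONO, 8 to 8 higher and 2 to 3 lower in CO vs MONO, and 0 to 2 higher and 0 to 1 lower in CO vs TSW.

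With no fold change threshold 12 members were higher and 2 lower in MM.1S CO vs MONO, beside 16.2% and 15% of all genes tested. In RPMI8226 they were 15 and 7 in TSW, beside 29% and 38%, and 14 and 9 in CO, beside 30.3% and 41.7%. In RPMI8226 CO vs TSW they were 5 and 9, beside 10.1% and 17.5%. The loess correction gave 11 higher in MM.1S TSW vs MONO and 5 in CO vs MONO, beside 5.71% and 5.67% of all genes tested. In RPMI8226 it gave 0 lower in TSW vs MONO, 1 lower in CO vs MONO, and 0 and 0 in CO vs TSW. In RPMI8226 CO vs TSW no filter gave 0 higher, voom 3 higher, and median-of-ratios scaling and quantile normalization 0 lower. Of all genes tested, 1.25% were higher with no filter and 3.12% with voom, and 1.71% were lower with either scaling. The filter at a mean RPKM of 5, which tests fewer genes, gave 8 higher in MM.1S TSW vs MONO and 6 in CO vs MONO. Of all genes tested with it, 6.28% and 6.58% were higher there. In RPMI8226 it gave 8 higher and 2 lower in TSW vs MONO, beside 15.7% and 18.5% of all genes tested. In CO vs MONO it gave 6 higher and 3 lower, beside 17.3% and 24.8%. The cause of the other changes was not tested.

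Counts over all genes moved by more than 1.5 times as follows. With no fold change threshold 1459 genes were higher and 1310 lower in MM.1S TSW (658 and 422 with it), 1647 and 1528 in CO (724 and 472), and in RPMI8226 2996 and 3925 in TSW (1500 and 1852), 3123 and 4299 in CO (1693 and 2363), and 1045 and 1804 in CO vs TSW (196 and 247). In RPMI8226 CO vs TSW a pseudocount of 0.1 gave 296 higher, voom 322 higher, leaving out TSW replicate 1 383 higher and the loess correction 81 lower. In MM.1S CO vs TSW (38 higher, 4 lower) no filter gave 128 higher, a mean RPKM of 5 gave 5 and 2, quantile normalization 7 lower, a fit of the 2 conditions 11 lower, and leaving out libraries 8 lower (MONO replicate 1), 7 (MONO replicate 2) and 2 (TSW replicate 1, TSW replicate 2 or CO replicate 1). In MM.1S CO vs MONO a mean RPKM of 5 gave 479 higher.

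The replicate block left the members called at 9 and 0, 7 and 0, and 0 and 0 in MM.1S (TSW, CO and CO vs TSW; higher, lower) and at 9 and 3, 8 and 3, and 1 and 1 in RPMI8226. Deviations of libraries with the same number correlated from -0.38 to 0.286 in MM.1S and from 0.164 to 0.271 in RPMI8226. In MM.1S 7 of 18 matches were best with the own number, all 6 between MONO and TSW among them. In RPMI8226 12 of 12 were. With 2 libraries per condition the deviations mirror each other and both numbers give the same correlation, so these 12 matches are not independent. TSW and CO cells shared wells by the study's methods, but the labels do not say which libraries came from the same well or batch. The numbers were not taken as pairs for that reason. In addition, not every MM.1S correlation was over 0.1, and RPMI8226 has 2 libraries per condition, fewer than the 3 pairs the correlation needs. Depth limits the low genes most, with 1 tag on 2 kb worth an RPKM of 0.0262 to 0.0555.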
